A study of Homo sapiens with 16 samples.

Results

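Expression of 9 genes of osteoclast formation and macrophage fusion was followed in THP-1 cells, a human acute monocytic leukemia line that takes on macrophage features when treated with phorbol-12-myristate-13-acetate (PMA). The 9 genes (OCSTAMP, DCSTAMP, TM4SF19, SIGLEC15, ATP6V0D2, ACP5, CTSK, NFATC1 and TNFRSF11A) were found by symbol among the 60676 genes of the count table, and all 9 were among the 16503 genes that passed the filter on low counts. They were chosen by their known roles with fitted results of these data in view, the PMA response among them, so their difference between PMA and DMSO is given as a description without a test. Cells with stable short hairpin RNA against UHRF1 (shUHRF1), DNMT1 (shDNMT1) or DNMT3B (shDNMT3B), and cells with a non-targeting hairpin (shNC), were kept for 48 h in 100 ng/ml PMA or in the solvent DMSO. RNA-seq gave 2 libraries for each of the 8 groups. UHRF1 and DNMT1 maintain DNA methylation after replication and DNMT3B sets new methyl groups. The question for these genes is how each hairpin line differed from shNC, before and after PMA. Nothing in the labels says that the 2 libraries came from separate cultures, so p-values measure the spread between these libraries, which may be technical.

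Osteoclasts are the bone-resorbing cells of the monocyte lineage. They arise when the cytokine RANKL binds its receptor RANK on precursors grown with M-CSF, and signals through NF-kB, AP-1 and calcium turn on the transcription factor NFATC1. NFATC1 then drives genes for cell fusion, for acid secretion and for digestion of bone matrix. Macrophages use part of the same set when they fuse into multinucleated giant cells. Fusion itself was not measured here, and in bulk RNA fewer cells of a type and less RNA per cell cannot be told apart.

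Libraries with the number 1 held 20384066 to 23151864 counts, and those with the number 2 held 13883556 to 15679327. No hairpin target was called lower in its own line. UHRF1 had 9.62 and 12.2 CPM (counts scaled to a library of 1e+06) in the PMA libraries labelled shUHRF1, against 4.62 and 7.43 CPM in shNC PMA (log2 fold change 0.87, adjusted p = 0.129 in edgeR's quasi-likelihood test, and 0.000375 with the replicate number as a block). DNMT1 had 84.1 and 99.6 CPM in the PMA libraries labelled shDNMT1, against 56.9 and 78.0 CPM in shNC (0.45, adjusted p = 0.376, and 0.00418 with the block). DNMT3B was called higher in the PMA libraries labelled shDNMT3B (2.74 and 3.19 CPM) than in shNC (1.26 and 1.59 CPM, log2 fold change 1.06, adjusted p = 0.00688). In DMSO the log2 fold changes of UHRF1, DNMT1 and DNMT3B in their own lines were -0.36, -0.25 and -0.48, with adjusted p of 0.605, 0.787 and 0.212. These values are of RNA, and protein was not analysed here. Lines are named by their labels, and every direction given holds for libraries as labelled. Monocyte and macrophage markers were found in every group (8 of 8 genes with counts), at 2362 to 3243 summed CPM after PMA and 521 to 690 in DMSO. In shNC the means of CSF1R (1191 CPM after PMA, 37.5 in DMSO), CD68 (1148 and 240), SPI1, ITGAM and CD14 were higher after PMA. Those of LYZ (27.7 and 71.8), FCGR1A (24.5 and 128) and CD33 (22.7 and 26.9) were lower. The 6 osteoclast markers beyond the 9 genes summed to 4933 to 25915 CPM after PMA and 565 to 1495 in DMSO, most of it MMP9 after PMA (4784 to 25695 CPM) and CA2 in DMSO (560 to 1482 CPM), while CALCR, the calcitonin receptor, had 1 count over all 16 libraries. Osteoblast markers summed to 90.7 CPM or less. Erythroid genes had 489 summed CPM in shNC DMSO library 1 and at most 2.28 elsewhere. That library enters every DMSO comparison below, and calls of the 9 genes and of the pathway lists that change without it are given.

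The promoters read here, of 5 of the 9 genes, differ in CpG content. This matters for a study of DNA methyltransferases because these enzymes act on cytosines of CpG pairs. RefSeq promoter sequences (GRCh38.p14, the build of the counts being hg38) matched 5 of the 9 genes with 9 start sites, and the 250 bases before each start were read. Gene positions given below are from GENCODE, which places the starts of TM4SF19, NFATC1, TNFRSF11A and ACP5 farther upstream. By those positions, part or all of the stretches of these genes lies inside the gene. The motif CG, which reads the same on both strands, was counted in them and in 35116 such stretches of all genes, whose median was 11. Methylation of these bases was not analysed here, and the count of a motif is a description. The sequences of 4 genes are shown, 5′ to 3′ on the strand of the gene, with each CG in capitals, since they span the low and high ends.
SIGLEC15, chr18:45825425-45825674, plus strand: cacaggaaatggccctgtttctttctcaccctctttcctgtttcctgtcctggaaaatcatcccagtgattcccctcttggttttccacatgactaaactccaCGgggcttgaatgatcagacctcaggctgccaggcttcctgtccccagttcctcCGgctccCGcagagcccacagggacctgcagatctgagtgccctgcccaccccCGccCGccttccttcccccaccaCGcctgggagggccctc
TM4SF19, chr3:196338389-196338638, minus strand: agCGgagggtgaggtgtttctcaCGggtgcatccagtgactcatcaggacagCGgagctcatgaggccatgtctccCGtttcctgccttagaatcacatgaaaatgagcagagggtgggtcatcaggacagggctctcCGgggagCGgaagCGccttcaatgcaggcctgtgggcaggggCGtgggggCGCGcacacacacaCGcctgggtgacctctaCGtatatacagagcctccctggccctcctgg
NFATC1, chr18:79395680-79395929, plus strand: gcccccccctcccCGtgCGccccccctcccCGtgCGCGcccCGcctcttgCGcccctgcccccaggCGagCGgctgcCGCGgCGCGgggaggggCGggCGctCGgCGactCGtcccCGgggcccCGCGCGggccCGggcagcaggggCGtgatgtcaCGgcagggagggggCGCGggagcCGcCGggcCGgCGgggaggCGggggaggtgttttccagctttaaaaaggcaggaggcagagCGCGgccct
TNFRSF11A, chr18:62325060-62325309, plus strand: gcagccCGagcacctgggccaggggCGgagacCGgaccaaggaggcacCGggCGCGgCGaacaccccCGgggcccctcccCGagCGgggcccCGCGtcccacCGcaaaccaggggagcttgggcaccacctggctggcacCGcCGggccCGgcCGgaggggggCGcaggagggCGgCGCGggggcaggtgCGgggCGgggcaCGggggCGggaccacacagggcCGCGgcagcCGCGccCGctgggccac

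SIGLEC15 had 6 CG pairs and TM4SF19 had 12, and 61.9% and 48.5% of all stretches had as many or more. NFATC1 had 34 before its first start and 32 before its second, numbers reached by 6.84% and 9.52% of stretches. TNFRSF11A had 30, reached by 12.4%. The 4 ACP5 start sites had 7 to 22. The AP-1 motif TGANTCA, which is its own reverse complement, was searched in the same stretches, since phorbol esters are known to activate AP-1. It occurred in 1 of the 9 stretches, TM4SF19, starting 214 bases before the RefSeq start, and in 6.57% of all stretches.

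After PMA the 9 genes were at very different levels. Exon lengths were those of all annotated exons of a gene joined (8447 bases for CTSK, 4351 for ACP5), so levels per kilobase depend on the annotation. Per kilobase of exon, shNC PMA cells had 625 CPM of TM4SF19, 114 of DCSTAMP, 47.1 of OCSTAMP and 28.1 of ATP6V0D2. ACP5 (7.07), NFATC1 (6.68), TNFRSF11A (4.04), CTSK (3.02) and SIGLEC15 (2.57 CPM per kilobase) were lower. In DMSO the counts of the first 4 and of ACP5 were at or near 0, between 0 and 13 in the sum of both libraries of any group, whereas SIGLEC15, CTSK, NFATC1 and TNFRSF11A had at least 27 counts in every DMSO group. Between PMA and DMSO, 8 of 9 genes lay above 1 on the log2 scale with no overlap of libraries in shUHRF1, 6 in shDNMT1, 8 in shDNMT3B and 8 in shNC. The same held for 23.2%, 23.3%, 20.0% and 22.1% of all genes tested. NFATC1 stayed below this limit in the 4 lines, and SIGLEC15 and CTSK did so in shDNMT1.

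The number of genes that fell below shNC after PMA was 1 of 9 in the libraries labelled shUHRF1, 5 of 9 in shDNMT1 and 9 of 9 in shDNMT3B, and none rose. Of all genes tested, 3.69% were called in shUHRF1, 14.8% in shDNMT1 and 20.3% in shDNMT3B, and 1.65%, 6.35% and 9.05% were called lower. OCSTAMP fell in all 3 lines, with 37.6%, 18.6% and 25.3% of the shNC level in shUHRF1, shDNMT1 and shDNMT3B. Every comparison with shNC after PMA, here and below, uses the same 2 shNC libraries. Falls of a gene in several lines are therefore not independent results. DCSTAMP, SIGLEC15, CTSK and NFATC1 fell in shDNMT1 and shDNMT3B. TM4SF19, ATP6V0D2, ACP5 and TNFRSF11A passed the test without a replicate block in shDNMT3B alone. TNFRSF11A also passed in shDNMT1 in edgeR with the replicate block (adjusted p = 0.00241) and in DESeq2 (adjusted p = 0.0418). Whether shDNMT3B differed from the other hairpin lines was not tested. The median log2 fold change over the 9 genes was -0.38, -0.78 and -1.36 in the 3 lines, against 0.02, 0.01 and 0.04 over all genes tested. The 9 genes were chosen with earlier results of these data in view. OCSTAMP, DCSTAMP, TM4SF19, ATP6V0D2 and ACP5 passed the filter on low counts through their PMA libraries. Setting the 9 genes beside all genes, here and below, is therefore a description and not a test of the set. Calls are those with p under 0.05 after Benjamini-Hochberg adjustment over all 16503 genes, in edgeR's quasi-likelihood test. With the replicate block, 2, 6 and 9 of the 9 genes were called, and 15.2%, 31.4% and 39.9% of all genes.

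Libraries of the 9 genes did not overlap with shNC, on the lower side, for 6 genes in shUHRF1, 6 in shDNMT1 and 9 in shDNMT3B, a pattern that 22.0%, 27.1% and 30.8% of all genes showed. The PMA libraries labelled shDNMT3B also had more mitochondrial counts, 19.5% in library 1 and 9.35% in library 2, against 7.71% to 10.3% and 3.92% to 4.86% in the other PMA libraries with these numbers. The part of this difference in the shDNMT3B values was not tested.

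**Figure D1:**
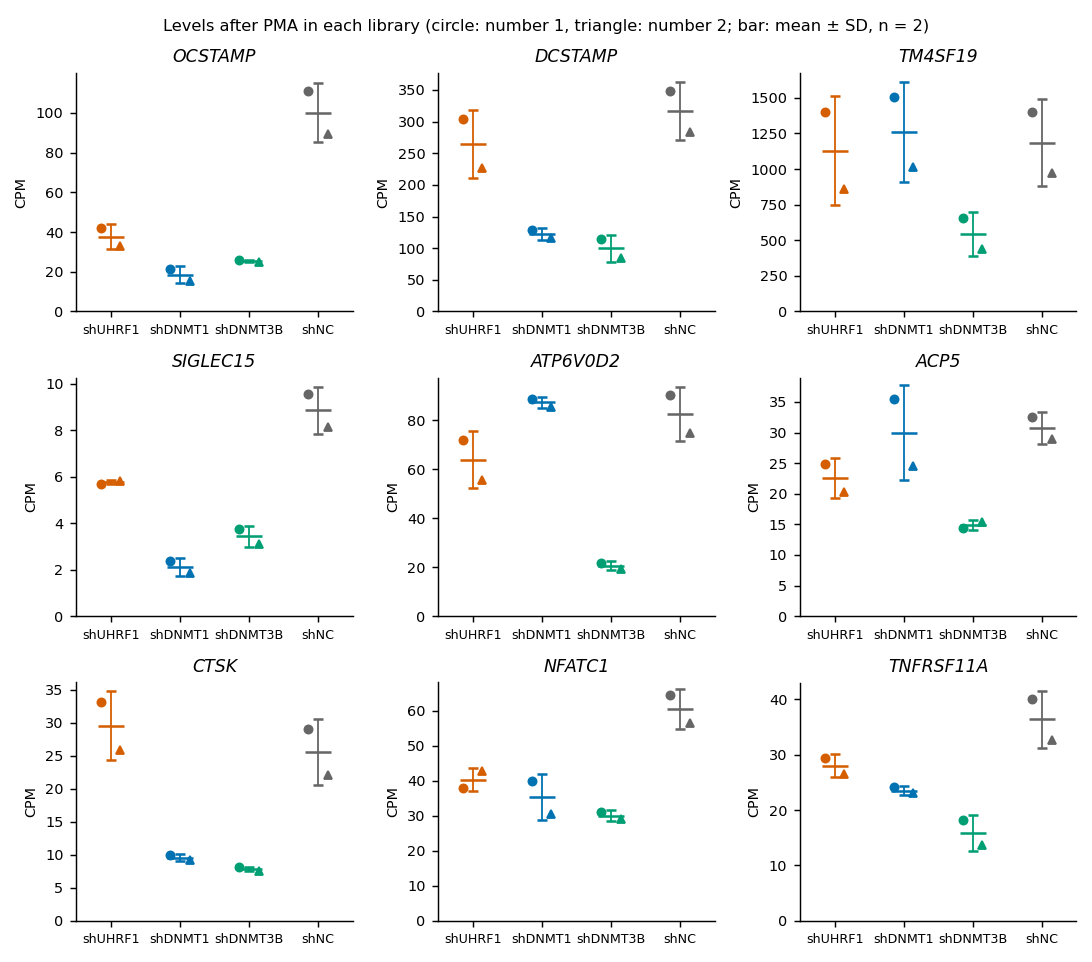
Level (CPM, linear axis from 0) of each of the 9 genes after PMA in the libraries labelled shUHRF1, shDNMT1, shDNMT3B and shNC, with circles for library 1, triangles for library 2 and bars for mean ± SD (n = 2). All shDNMT3B points lie below both shNC points, while TM4SF19, ATP6V0D2 and ACP5 in shDNMT1 overlap with shNC.

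**Figure D2:**
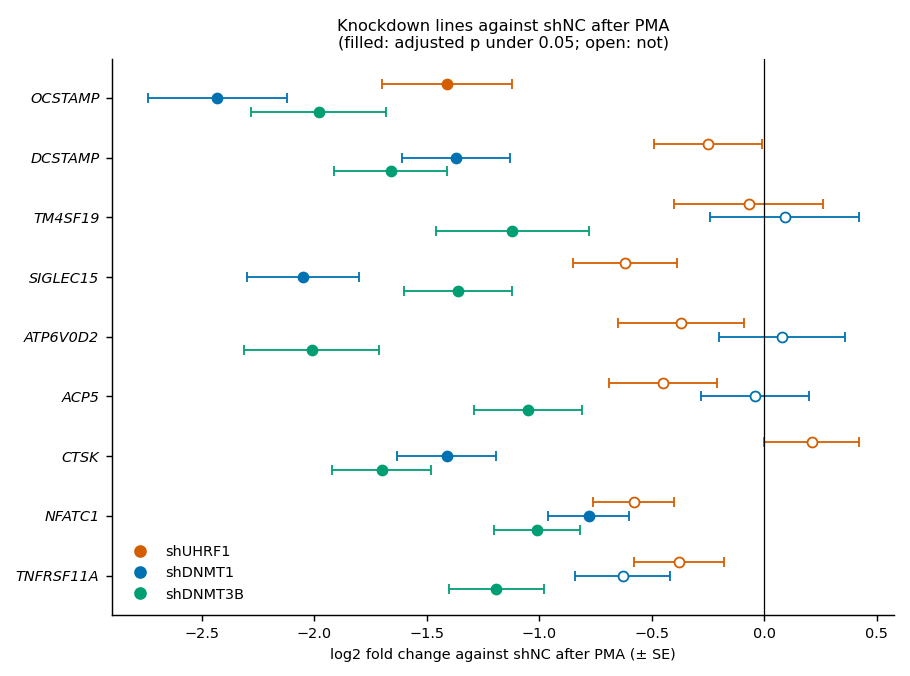
Fitted log2 fold change (± SE) of each hairpin line against shNC after PMA, filled where the adjusted p was under 0.05 and open where it was not. Filled points number 1 for shUHRF1, 5 for shDNMT1 and 9 for shDNMT3B, and OCSTAMP in shDNMT1 is farthest from 0 at -2.43.

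TNFRSF11A (chr18:62325287-62391288, plus strand, hg38) encodes RANK, the receptor through which RANKL starts osteoclast formation. After PMA it had 29.4 and 26.5 CPM in shUHRF1, 24.1 and 23.0 in shDNMT1, and 18.2 and 13.7 in shDNMT3B, against 40.0 and 32.7 in shNC. The 4 lines did not overlap, and their order from high to low was shNC, shUHRF1, shDNMT1 and shDNMT3B. It fell in shDNMT3B by 1.19 on the log2 scale (SE 0.21, adjusted p = 0.00184). In shDNMT1 the log2 fold change was -0.63 (adjusted p = 0.0583, and 0.00241 with the replicate block). In DMSO it had 1.5 and 1.76 CPM in shUHRF1, 0.869 and 1.04 in shDNMT1, and 1.48 and 1.12 in shDNMT3B, against 2.05 and 1.38 in shNC, and no difference was called. The ratio of PMA to DMSO was 17.3 in shUHRF1, 24.7 in shDNMT1 and 12.5 in shDNMT3B, against 21.5 in shNC (95% counting interval 16.7 to 28.0). No difference in this response was called.

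NFATC1 (chr18:79395856-79529325, plus strand) encodes the calcineurin-activated transcription factor that acts as the main switch of osteoclast formation. It differed least between treatments: the ratio of PMA to DMSO was 1.73 in shUHRF1, 1.38 in shDNMT1 and 1.27 in shDNMT3B, against 1.78 in shNC. After PMA it had 38.0 and 42.9 CPM in shUHRF1, 39.9 and 30.6 in shDNMT1, and 31.1 and 29.0 in shDNMT3B, against 64.6 and 56.6 in shNC. All hairpin libraries were below both shNC libraries, while shUHRF1 overlapped with shDNMT1 and shDNMT1 with shDNMT3B. NFATC1 fell by 0.78 on the log2 scale in shDNMT1 (SE 0.18, adjusted p = 0.0136) and by 1.01 in shDNMT3B (SE 0.19, adjusted p = 0.00247). The shDNMT1 call was lost without shNC PMA library 1 (-0.68) or without shDNMT1 PMA library 2 (-0.60), in fits without the replicate block. With the block and all libraries its adjusted p was 9.2e-05. In shUHRF1 the value was -0.58 (adjusted p = 0.112, and 0.00461 with the replicate block). Levels in DMSO were 23.5 and 22.9 CPM in shUHRF1, 28.0 and 24.4 in shDNMT1, and 26.5 and 21.2 in shDNMT3B, against 38.8 and 29.7 in shNC. The libraries did not overlap with shNC there either, but no line passed the test. The DMSO differences in shUHRF1 (-0.56, adjusted p = 0.19) and shDNMT3B (-0.52, adjusted p = 0.146) had adjusted p of 0.0103 and 0.00984 with the replicate block.

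DCSTAMP (chr8:104339087-104356689, plus strand) encodes a multi-pass membrane protein without which mouse osteoclasts and giant cells do not fuse. It had 304 and 227 CPM in shUHRF1 PMA, 129 and 116 in shDNMT1 PMA, and 115 and 85.0 in shDNMT3B PMA, against 349 and 284 in shNC PMA. The shUHRF1 libraries overlapped with shNC, and those of shDNMT1 and shDNMT3B lay below all others and did not overlap with each other. DCSTAMP fell by 1.37 on the log2 scale in shDNMT1 (SE 0.24, adjusted p = 0.00232) and by 1.66 in shDNMT3B (SE 0.25, adjusted p = 0.000569). In shUHRF1 the value was -0.25 (SE 0.24, adjusted p = 0.682). The DMSO groups held 1, 1 and 9 counts in shUHRF1, shDNMT1 and shDNMT3B, against 5 in shNC, too few for a fold between lines.

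OCSTAMP (chr20:46540946-46550654, minus strand) encodes a related membrane protein, also needed for fusion in mice. Its PMA level was 42.0 and 33.2 CPM in shUHRF1, 21.6 and 15.5 in shDNMT1, and 25.7 and 24.9 in shDNMT3B, against 111 and 89.5 in shNC. The 4 lines did not overlap, and shNC was followed by shUHRF1, shDNMT3B and shDNMT1. The log2 fold changes were -1.41 (SE 0.29, adjusted p = 0.0278) in shUHRF1, -2.43 (SE 0.31, adjusted p = 0.000424) in shDNMT1 and -1.98 (SE 0.30, adjusted p = 0.00122) in shDNMT3B. The shUHRF1 call was lost when any 1 of the 4 libraries was left out, with values of -1.25 to -1.59. Those fits did not use the replicate block, with which the adjusted p of the shUHRF1 difference was 1.7e-06. Within libraries numbered 1 and 2 the log2 ratios of shUHRF1 to shNC were -1.40 and -1.43. In DMSO both libraries were at 0 counts in shDNMT1 and in shNC, and the groups had 5 counts in shUHRF1 and 4 in shDNMT3B. Against a floor of 3 counts over the DMSO group, the PMA level was at least 240-fold higher in shDNMT1 and at least 1282-fold higher in shNC.

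TM4SF19 (chr3:196319342-196338503, minus strand), a multi-pass membrane protein of the L6 antigen family, was the most abundant of the 9 genes after PMA. It had 1399 and 858 CPM in shUHRF1, 1509 and 1014 in shDNMT1, and 655 and 437 in shDNMT3B, against 1403 and 970 in shNC. The shDNMT3B libraries lay below both shNC libraries, the other lines overlapped with shNC, and in every line library 1 was the higher. TM4SF19 fell by 1.12 on the log2 scale in shDNMT3B (SE 0.34, adjusted p = 0.0358). This call was lost with upper-quartile scaling (-0.99, adjusted p = 0.0609) and without any 1 of the 4 libraries (adjusted p 0.0514 to 0.22), while the replicate block gave an adjusted p of 1.09e-06. The other lines had log2 fold changes of -0.07 (shUHRF1, adjusted p = 0.961) and 0.09 (shDNMT1, adjusted p = 0.911), signs that turned when single libraries were left out. In DMSO it had 4, 1 and 0 counts in shUHRF1, shDNMT1 and shDNMT3B, against 9 in shNC. TM4SF19 shares 814 exon bases, 42.9% of its exons, with the readthrough gene TM4SF19-DYNLT2B on the same strand, and 28.4% with the antisense gene TM4SF19-AS1. The strand setting of the counting is not given in the sources used here, so reads of these genes may be split between rows. The readthrough row held 3276 counts in all libraries and the antisense row 44, against 141304 for TM4SF19. TM4SF19-DYNLT2B had 8.85 and 7.80 CPM in shDNMT3B PMA, against 39.6 and 30.7 CPM in shNC PMA, and fell by 2.08 on the log2 scale (SE 0.27, adjusted p = 0.000789).

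SIGLEC15 (chr18:45825675-45844094, plus strand), a sialic acid-binding receptor that signals through the adaptor DAP12, had the lowest level of the 9 genes per length in shNC after PMA. Its PMA level was 5.71 and 5.84 CPM in shUHRF1, 2.39 and 1.85 in shDNMT1, and 3.77 and 3.12 in shDNMT3B, against 9.56 and 8.15 in shNC. The lines did not overlap, and shNC was followed by shUHRF1, shDNMT3B and shDNMT1. SIGLEC15 fell by 2.05 on the log2 scale in shDNMT1 (SE 0.25, adjusted p = 0.000145) and by 1.36 in shDNMT3B (SE 0.24, adjusted p = 0.00197), and had -0.62 in shUHRF1 (adjusted p = 0.192). In DMSO the levels were 0.580 and 0.713 CPM in shUHRF1, 1.36 and 1.09 in shDNMT1, and 0.792 and 0.966 in shDNMT3B, against 1.05 and 1.22 in shNC, with no call. The ratio of PMA to DMSO was therefore 1.77 in shDNMT1 (95% counting interval 1.22 to 2.61), against 7.89 (5.72 to 11.1) in shNC. This difference of responses was called, at -2.16 on the log2 scale (SE 0.37, adjusted p = 0.00354). The ratios in shUHRF1 (8.91) and shDNMT3B (3.95) gave differences of 0.19 and -0.99 from shNC, with adjusted p of 0.938 and 0.157.

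ATP6V0D2 (chr8:85987323-86154225, plus strand) encodes a subunit of the vacuolar proton pump that is abundant in osteoclasts and has a part in fusion in mice. It had 72 and 55.6 CPM in shUHRF1 PMA, 88.8 and 85.5 in shDNMT1 PMA, and 21.8 and 19.2 in shDNMT3B PMA, against 90.3 and 74.7 in shNC PMA. The shDNMT1 libraries lay within the range of shNC, and the shDNMT3B libraries were the lowest by far. ATP6V0D2 fell by 2.01 on the log2 scale in shDNMT3B (SE 0.30, adjusted p = 0.000773). In shUHRF1 the value was -0.37 (adjusted p = 0.595), and in shDNMT1 it was 0.08 (adjusted p = 0.906), which turned to -0.05 without shNC PMA library 2. In DMSO it had 3, 0 and 8 counts in shUHRF1, shDNMT1 and shDNMT3B, against 13 in shNC.

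ACP5 (chr19:11574653-11579993, minus strand) encodes tartrate-resistant acid phosphatase, the enzyme stained to identify osteoclasts. After PMA it had 24.9 and 20.3 CPM in shUHRF1, 35.4 and 24.5 in shDNMT1, and 14.4 and 15.4 in shDNMT3B, against 32.6 and 28.9 in shNC. The shDNMT1 libraries lay on both sides of shNC and those of shDNMT3B were lowest. ACP5 fell by 1.05 on the log2 scale in shDNMT3B (SE 0.24, adjusted p = 0.0095, and 3.79e-05 with the replicate block). In fits without the block, this call was lost without shNC PMA library 1 (-0.96), shDNMT3B PMA library 1 (-0.99) or shDNMT3B PMA library 2 (-1.10). The values in shUHRF1 and shDNMT1 were -0.45 (adjusted p = 0.388) and -0.04 (adjusted p = 0.975, and 0.01 in place of -0.04 with upper-quartile scaling). The DMSO groups had 2, 3 and 1 counts in shUHRF1, shDNMT1 and shDNMT3B, against 1 in shNC.

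CTSK (chr1:150794880-150809577, minus strand) encodes cathepsin K, the collagen-degrading protease of osteoclasts, and it was the 1 gene of the 9 called in DMSO. Its PMA level was 33.2 and 25.8 CPM in shUHRF1, 9.94 and 9.23 in shDNMT1, and 8.11 and 7.58 in shDNMT3B, against 29.1 and 22 in shNC. The shUHRF1 and shNC libraries overlapped, and the other lines were lower than both without overlap. CTSK fell by 1.41 on the log2 scale in shDNMT1 (SE 0.22, adjusted p = 0.000845) and by 1.70 in shDNMT3B (SE 0.22, adjusted p = 0.000224), and had 0.21 in shUHRF1 (adjusted p = 0.711). In DMSO it had 8.42 and 7.46 CPM in shUHRF1, 6.57 and 5.19 in shDNMT1, and 3.65 and 2.95 in shDNMT3B, against 8.83 and 6.75 in shNC. It fell there by 1.24 in shDNMT3B (SE 0.23, adjusted p = 0.00809, and 2.3e-05 with the replicate block). In fits without the block, this call was lost without shNC DMSO library 1 (-1.03) or shDNMT3B DMSO library 2 (-1.09). The DMSO value in shDNMT1 was -0.41 (adjusted p = 0.417). The ratio of PMA to DMSO was 3.76 in shUHRF1, 1.64 in shDNMT1 and 2.39 in shDNMT3B, against 3.35 in shNC. The response in shDNMT1 was 1.01 lower on the log2 scale than in shNC (log2 difference -1.01, SE 0.31), with an adjusted p of 0.0775, and 0.0024 with the replicate block.

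**Figure D3:**
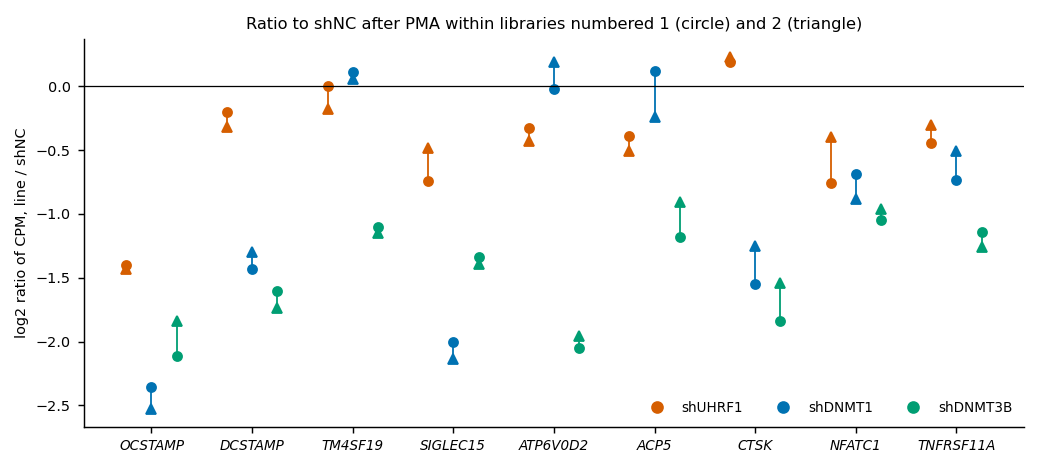
log2 ratio of CPM to shNC after PMA, taken within libraries numbered 1 (circles) and within libraries numbered 2 (triangles) for shUHRF1, shDNMT1 and shDNMT3B. Both shDNMT3B ratios are between -0.91 and -2.11 for the 9 genes, below 0 as the lack of overlap with shNC already fixes, and those of TM4SF19, ATP6V0D2 and ACP5 in shDNMT1 lie near 0.

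**Figure D4:**
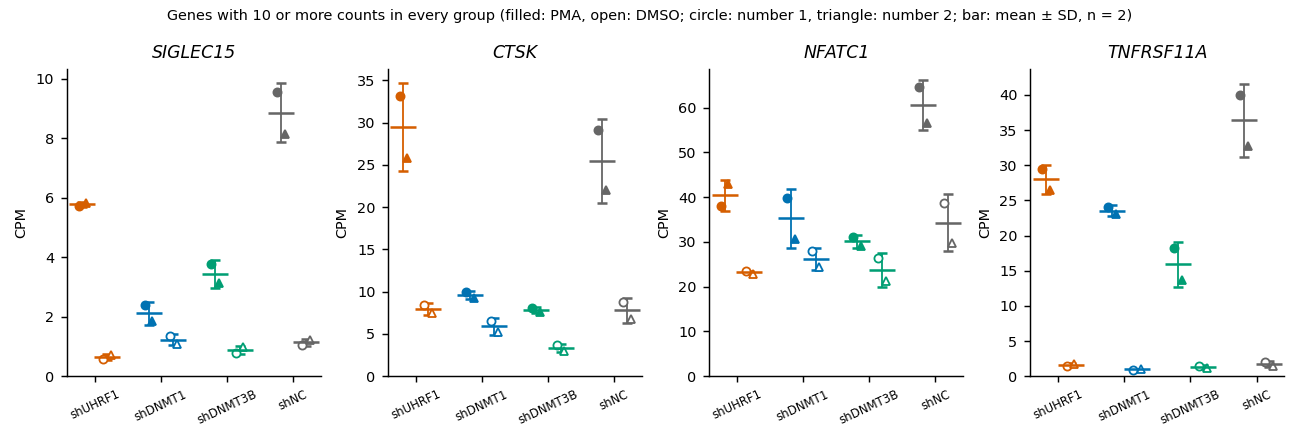
Level (CPM, linear axis from 0) of the 4 genes with at least 10 counts in every group, after PMA (filled) and in DMSO (open), by line, with circles for library 1, triangles for library 2 and bars for mean ± SD (n = 2). SIGLEC15 in shDNMT1 averaged 2.12 CPM after PMA and 1.22 in DMSO, against 8.86 after PMA and 1.14 in DMSO in shNC.

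Among the DMSO comparisons, 0 of 9 genes were called in shUHRF1, 0 in shDNMT1 and 1 in shDNMT3B, against 1.31%, 3.96% and 4.51% of all genes tested in edgeR (1.15%, 3.39% and 2.89% called lower). Of the 4 genes with at least 10 counts in every DMSO group, 2, 3 and 3 lay below shNC without overlap, as did 21.3%, 24.9% and 23.4% of all genes. Of the 9 genes, 4, 3 and 3 had an unadjusted p under 0.05, as did 13.5%, 16.1% and 17.9% of all genes, and the 4 in shUHRF1 include OCSTAMP, which was the higher there on 5 counts against 0 in shNC. DESeq2 called 0, 1 and 2 of the 9, and 3.48%, 5.65% and 6.96% of all genes. The replicate block gave 1 (NFATC1), 1 (ATP6V0D2) and 3 (CTSK, NFATC1 and TM4SF19), with 11.5%, 13.6% and 18.7% of all genes. The added DESeq2 calls, ATP6V0D2 in shDNMT1 and TM4SF19 in shDNMT3B, rest on groups with 0 counts against 13 and 9 in shNC. For the difference of PMA responses from shNC, edgeR called 0 genes in shUHRF1, 2 in shDNMT1 and 0 in shDNMT3B, against 0.848%, 6.71% and 6.77% of all genes. The second call in shDNMT1, ATP6V0D2 (adjusted p = 0.0473), rests on a DMSO group at 0 counts and its size is not read. Unadjusted p under 0.05 was reached by 1, 4 and 5 of the 9 genes and by 11.9%, 19.4% and 19.7% of all genes. The replicate block called 1, 4 and 2 of the 9 and 8.48%, 18.6% and 19.5% of all genes, and DESeq2 called 0, 2 and 2 of the 9 and 2.51%, 8.77% and 9.03% of all genes. In these counts OCSTAMP, DCSTAMP, TM4SF19 and ATP6V0D2 rest on DMSO groups with 0 to 13 counts, and their response differences are not read. The other genes counted were SIGLEC15 and CTSK in shDNMT1 and, by unadjusted p alone, SIGLEC15 and TNFRSF11A in shDNMT3B.

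The other genes of osteoclast formation were taken from 5 lists with 83 genes, of which 78 were tested. They were chosen, like the 9 genes, with earlier results known, so their counts and changes with PMA are a description and support nothing. In shNC, 60 were called higher and 13 lower with PMA, as were 28.4% and 26.0% of all genes. In shUHRF1 the numbers were 59 and 10 (29.4% and 25.5% of all genes), in shDNMT1 58 and 8 (28.6% and 24.1%), and in shDNMT3B 56 and 8 (25.2% and 19.7%). The median log2 fold change of the lists was 1.70, 1.87 and 1.32 in shUHRF1, shDNMT1 and shDNMT3B, and 1.68 in shNC. After PMA, 0 list genes were called higher and 2 lower in shUHRF1 against shNC, 5 and 11 in shDNMT1, and 4 and 19 in shDNMT3B. Of all genes, 2.04%, 8.50% and 11.3% were called higher and 1.65%, 6.35% and 9.05% lower. With the replicate block the list counts were 14 and 15, 14 and 22, and 6 and 40, and the shares of all genes were 8.35% and 6.88%, 16.3% and 15.1%, and 20.5% and 19.5%. The lists' median log2 fold change was -0.05, -0.12 and -0.37. Of all genes, 1.31%, 3.96% and 4.51% were called in DMSO in shUHRF1, shDNMT1 and shDNMT3B. Of the list genes, 0, 0 and 2 were called higher there and 2, 9 and 12 lower. In DMSO 2, 9 and 14 list genes were called in shUHRF1, shDNMT1 and shDNMT3B, of which 0, 5 and 8 were called without shNC DMSO library 1, and 0 to 2, 4 to 7 and 2 to 8 over fits without any 1 of the 4 libraries. Of the DMSO calls named below, those lost without shNC DMSO library 1 were CSF1R (-0.89) and JDP2 (-1.11) in shUHRF1 and OSCAR (-2.29) in shDNMT1. The CSF1R call was also lost without shNC DMSO library 2 (-0.96) or shUHRF1 DMSO library 1 (-0.83). The JDP2 call was also lost without shUHRF1 DMSO library 1 (-1.24), and that of OSCAR without either shDNMT1 DMSO library (-2.73 and -2.80). All fits without 1 library were made without the replicate block.

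Of the RANK, M-CSF and co-receptor list, 13 of 15 genes were tested, and 7 rose and 5 fell with PMA in shNC. CSF1, the cytokine M-CSF, was 8.31 higher on the log2 scale with PMA in shNC, and its receptor CSF1R 4.99 higher. The kinase-coupled receptor SIRPB1 fell by 3.93 and TNFSF11, which is RANKL, fell by 2.42 at 5 and 6 counts in shNC PMA, against 50 and 20 in shNC DMSO. CSF1 was lower than shNC after PMA in the 3 lines: it had 777 and 847 CPM in shUHRF1, 347 and 278 in shDNMT1, and 305 and 286 in shDNMT3B, against 2185 and 2153 in shNC. It fell by 1.42 (adjusted p = 0.0124), 2.80 (3.28e-05) and 2.88 (3.39e-05). CSF1R fell in shDNMT3B by 0.84 (684 and 650 CPM in shDNMT3B, against 1266 and 1115 in shNC; adjusted p = 0.00438). The block called 1 of the list higher and 2 lower in shUHRF1, 4 and 2 in shDNMT1, and 1 and 3 in shDNMT3B, and CSF1R in shDNMT1 (-0.37, adjusted p = 0.0343) was among them. In shDNMT1, SIRPB1 rose by 1.04 and PLCG2, a phospholipase downstream of co-receptors, by 0.46. In DMSO, CSF1 fell in shDNMT1 (-2.28) and shDNMT3B (-1.56) and CSF1R in shUHRF1 (-0.93), while the receptor OSCAR fell in shDNMT1 (-2.76). The CSF1 call in shDNMT3B was lost without shNC DMSO library 2 (-1.41) or shDNMT3B DMSO library 1 (-1.19).

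All 20 activators and calcineurin genes were tested, and 18 rose and 2 fell with PMA in shNC, among them JUN (4.31), MITF (4.01), PRDM1 (3.68) and JUNB (3.14), all transcription factors. Against shNC after PMA, 0 passed in shUHRF1, 6 fell in shDNMT1, and 1 rose and 2 fell in shDNMT3B. With the replicate block, 3 were called higher and 6 lower in shUHRF1, among them FOS (0.67, adjusted p = 0.00163), FOSL2 (0.47, 0.00492) and MITF (-0.73, 0.000422), and 1 and 10 in shDNMT1 and 1 and 12 in shDNMT3B. The NF-kB subunit RELB fell in shDNMT1 (-1.03) and shDNMT3B (-0.89), as did the MITF relative TFE3 (-0.56 and -0.44). FOSL1 (-0.87) and JDP2 (-0.98), which pair with AP-1 proteins, fell in shDNMT1. RCAN1, a calcineurin regulator that is itself a known NFAT target, went the other way from NFATC1 in shDNMT3B: it had 306 and 261 CPM, against 109 and 96.3 in shNC, and rose by 1.47 (SE 0.17, adjusted p = 9.69e-05). JDP2 fell in DMSO in shUHRF1 (-1.30) and shDNMT1 (-1.96), and JUN fell in shDNMT1 (-1.42).

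All 10 repressors of osteoclast formation were tested. With PMA in shNC, BCL6 rose by 6.36 and ID2 by 2.59, while IRF8 fell by 2.99, and in all 6 rose and 3 fell. After PMA, IRF8 was higher in shDNMT1 (81.7 and 94.2 CPM) than in shNC (28.6 and 34.6 CPM), with a log2 fold change of 1.48 (adjusted p = 0.00204). CYLD, a deubiquitinase, fell in shUHRF1 (-0.64), shDNMT1 (-0.60) and shDNMT3B (-1.02). In shDNMT3B, where 2 of the 10 rose and 4 fell, ARID5A (-1.61) and BCL6 (-0.59) fell, while ID1 (1.16) and IRF8 (0.79, adjusted p = 0.0451) rose. With the replicate block 1 rose and 3 fell in shUHRF1, 2 and 3 in shDNMT1, and 2 and 5 in shDNMT3B.

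Of the fusion and adhesion list, 18 of 20 genes were tested, and 16 rose and 0 fell with PMA in shNC. The replicate block called 17 higher and 1 lower. The share of all genes that it called between PMA and DMSO is not given here, so these 2 numbers are not read. ITGB3, the integrin beta chain of the osteoclast vitronectin receptor, had 117 and 147 CPM in shUHRF1 PMA, 88.6 and 107 in shDNMT1 PMA, and 37.9 and 44.9 in shDNMT3B PMA, against 205 and 225 in shNC PMA. It fell in shDNMT1 by 1.14 (adjusted p = 0.00867) and in shDNMT3B by 2.38 (0.000109), and had -0.70 in shUHRF1 (0.143, and 0.000426 with the replicate block). The chemokine CCL2, which promotes fusion of macrophages, had 257 and 178 CPM in shDNMT3B, against 1081 and 943 in shNC, and fell by 2.22 (0.000299). In shDNMT1 its value was -0.85 (0.0664, and 0.000126 with the block). CD44, an adhesion receptor, fell in shDNMT1 (-0.92) and shDNMT3B (-1.02), and the kinase SRC (-0.80) and the sorting protein SNX10 (-0.79) fell in shDNMT3B. SPP1, the matrix protein osteopontin, and the podosome scaffold SH3PXD2A (1.13) rose in shDNMT1. SPP1 had 4389 and 4352 CPM in shDNMT1, against 1356 and 1206 in shNC (log2 fold change 1.77, adjusted p = 0.00144), and its shUHRF1 value was 0.59 (0.336, and 0.00991 with the block). Of the list, the block called 6 higher and 3 lower in shUHRF1, 5 and 4 in shDNMT1, and 1 and 8 in shDNMT3B.

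Of the acid and matrix resorption list, 17 of 18 genes were tested, and 13 rose and 3 fell with PMA in shNC. The largest rises were those of the proteases MMP9 (10.68), CTSL (5.68), MMP14 (4.62) and CTSB (4.15). Those that fell were CA2 (-3.30), CKB (-1.61) and SLC9B2 (-0.73). CA2 had 145 and 117 CPM in shNC PMA, against 1482 and 1102 in shNC DMSO, and it also fell with PMA in the hairpin lines. Against shNC after PMA, 0 genes were called in shUHRF1, SLC9B2, a sodium-proton exchanger, fell in shDNMT1 (-0.95), and 1 rose and 6 fell in shDNMT3B. Those 6 included the proton pump subunit ATP6V1B2 (-0.80), the protease CTSS (-0.75) and the anion exchanger SLC4A2 (-0.58), and the gene that rose was CKB, a creatine kinase (1.5, adjusted p = 0.0114). The block called 3 higher and 1 lower in shUHRF1, 2 and 3 in shDNMT1, and 1 and 12 in shDNMT3B. MMP9 fell in DMSO in shDNMT1 (-2.87) and shDNMT3B (-2.43), against 4.52 and 11.4 CPM in shNC DMSO. Over fits without 1 library the values ran from -4.01 to -2.06 in shDNMT1 and from -2.94 to -1.61 in shDNMT3B. The shDNMT1 call was lost without shNC DMSO library 2 or shDNMT1 DMSO library 1. The shDNMT3B call was lost without shNC DMSO library 2 or either shDNMT3B DMSO library.

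Over all 16 libraries, the gene outside the 9 with the most similar log2 CPM was TNFAIP6 for OCSTAMP (Pearson r = 0.9936), CSF1R for DCSTAMP (0.9962) and IL1RN for TM4SF19 (0.9975). It was SQOR for ATP6V0D2 (0.9938), CCL8 for ACP5 (0.9973) and UPP1 for TNFRSF11A (0.9944). These 6 profiles were shared by many genes: 862 to 1175 of 13617 genes with a mean of at least 1 CPM had an r over 0.95, since the libraries split into PMA and DMSO. SIGLEC15 was most like FOSB (0.9807), CTSK like COPS8 (0.9575) and NFATC1 like DCTN1 (0.9666), with 41, 1 and 1 genes over 0.95. These correlations describe libraries that share treatment and depth.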

How the data were processed

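RNA-seq was read for 16 THP-1 libraries in 8 groups (shUHRF1, shDNMT1, shDNMT3B and shNC, in PMA or DMSO). The submitters' processing notes name hg38, STAR 2.4.0b, HTSeq 0.6.1p1, Cufflinks 2.1.1 and edgeR without a version. From stranded mRNA libraries the authors deposited raw read counts, whole numbers for each Ensembl gene. Sample descriptions disagree with titles for 12 of 16 samples, and columns were assigned by the condition in their own names. GENCODE release 44 gave symbols and positions. The 9 genes, the lists and the rule for named genes were chosen with earlier results of these data known. The rule names the 9 genes, per list up to 4 genes changed most by PMA in shNC and those called in a hairpin line (all if 5 or fewer, otherwise the 4 with the smallest adjusted p), the most similar gene of each, the hairpin targets and overlapping rows; part of these is printed, and 1 gene that the rule names is not reported here. No fold between lines is given where a group held under 10 counts of the gene.

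Low rows were dropped by filterByExpr of edgeR 4.0.16 under R 4.3.3 (at least 10 counts in a group, 15 in total). After TMM scaling, a robust quasi-likelihood model was fitted to the 8 groups with 8 residual degrees of freedom (common dispersion 0.0439), with Benjamini-Hochberg adjustment. Levels are TMM-normalized CPM, and n is 2. The SE is the absolute log2 fold change over the root of F. Counting intervals (95%) and floors (3 counts over a group, 0.072 to 0.0949 CPM) cover counting error only. Few DMSO counts limit the precision of 5 of the 9 genes. Same-numbered libraries deviated alike in 28 of 28 pairs of groups (r = 0.22 to 0.508), so the number pairs libraries, and blocked values (7 residual degrees of freedom, dispersion 0.0115) stand beside the results of the 9 genes, of the hairpin targets and of list counts that they change. Alternatives were this replicate block, upper-quartile factors, no filter, DESeq2 1.42.0, an exact test after 3 DEGES rounds (the design of the study), and each library left out, its partner being assumed to vary like the other groups. Ratios within each library number were added after seeing the data. On simulated counts for 16503 genes the fit was tested first. Python 3.11.15 with pandas 2.3.3, NumPy 2.4.6 and SciPy 1.17.1 joined the tables, and promoter sequences are from RefSeq (GRCh38.p14).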

Additional observations from a re-analysis of the deposited data

Results flagged for a closer look

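SIGLEC15 showed a PMA response that differed between lines. The response in cells labelled shDNMT1 was -2.16 on the log2 scale relative to that of shNC (SE 0.37, adjusted p = 0.00354, edgeR's quasi-likelihood test of the difference), and both shDNMT1 PMA libraries (50 and 27 counts) were below both shNC PMA libraries (182 and 113 counts). The DMSO libraries had 25 and 21 counts in shDNMT1, against 20 and 23 in shNC. The difference ran from -1.99 to -2.38 over fits that left out 1 library each and stayed called in all of them, and its adjusted p was 0.000545 with the replicate block.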

How the results depend on the processing

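With the replicate block, genes called in shUHRF1, shDNMT1 and shDNMT3B against shNC numbered 1891, 2240 and 3083 in DMSO (217, 653 and 744 without it), 2514, 5176 and 6589 after PMA (609, 2450 and 3357), and 1400, 3074 and 3224 for the difference of PMA responses (140, 1107 and 1118). Of the 9 genes the block called 1, 1 and 3 in DMSO (0, 0 and 1 without it), 2 in shUHRF1 after PMA, and 1, 4 and 2 for the responses (0, 2 and 0). It changed 5 calls among genes with enough counts for a fold, given beside their values above, and no other. Without the filter, 545, 1065 and 1206 of 28053 genes were called in DMSO, and 321 and 1473 for the responses of shUHRF1 and shDNMT3B. Of the 9 genes, 1 was called in shDNMT1 and 2 in shDNMT3B in DMSO, and 1 and 2 for the responses of shUHRF1 and shDNMT3B. DESeq2 called 574 genes in shUHRF1 and 1148 in shDNMT3B in DMSO, 1052 in shUHRF1 after PMA and 415 for its response, and of the 9 genes 1 in shDNMT1 and 2 in shDNMT3B in DMSO and 2 for the shDNMT3B response. The DEGES exact test called 674 of 16503 genes in shDNMT1 in DMSO. Of the 9 genes it called 1 there, ATP6V0D2, at 0 counts against 13 in shNC. Upper-quartile factors moved the median of all genes by 0.13 in shDNMT3B after PMA and by -0.31 to -0.24 between PMA and DMSO, left 8 of 9 genes called in shDNMT3B after PMA, and gave 0.01 for ACP5 in shDNMT1 after PMA. The causes of these shifts were not tested.

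Leaving out 1 library at a time, 69 to 224, 239 to 376 and 284 to 394 genes were called in DMSO in shUHRF1, shDNMT1 and shDNMT3B, 115 to 186, 1064 to 1509 and 1586 to 1791 after PMA, and 9 to 109, 645 to 816 and 665 to 891 for the responses. Of the 9 genes these fits called 0 to 1 in shDNMT3B in DMSO, 0 to 0, 4 to 5 and 7 to 8 after PMA, and 1 to 1 for the shDNMT1 response. Signs turned for values near 0 that were not called: after PMA, TM4SF19 in shUHRF1 (-0.47 to 0.24) and, in shDNMT1, TM4SF19 (-0.23 to 0.38), ACP5 (-0.33 to 0.2) and ATP6V0D2 (-0.05 to 0.22). In DMSO they turned for CTSK (-0.15 to 0.23) and TNFRSF11A (-0.33 to 0.24) in shUHRF1 and SIGLEC15 in shDNMT1 (-0.06 to 0.25). Among responses they turned for CTSK (-0.03 to 0.39) and NFATC1 (-0.22 to 0.16) in shUHRF1 and TNFRSF11A in shDNMT1 (-0.1 to 0.47). Depth limits OCSTAMP, DCSTAMP, TM4SF19, ATP6V0D2 and ACP5 in DMSO, where no fold between lines can be read.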
